A study of Mus musculus with 6 samples.

Results

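The fetal gene program of hypertrophy was followed through 8 genes in RNA recovered from mouse left ventricle with an antibody against EZH2 or with normal IgG. The genes were taken by symbol: the natriuretic peptides Nppa and Nppb, the fetal contractile isoforms Acta1 and Myh7, the adult isoform Myh6, and the stretch-responsive genes Ankrd1, Xirp1 and Xirp2. They are 8 of the 45534 genes with a usable value in every library. RNA immunoprecipitation followed by sequencing (RIP-seq) recovers the RNA that comes down with an antibody, and EZH2 is the methyltransferase of Polycomb repressive complex 2, which marks histone H3 at repressed genes. Male mice of 10 weeks formed 3 groups of 2 mice each: Sham, which the study's methods describe as saline and the labels as untreated, and angiotensin II (AngII) given by osmotic minipump at 1 mg/kg/min for 4 h or 24 h. The labels spell the strain C57BL/6 in 4 libraries and C57BL/7 and C57BL/8 in those made with anti-EZH2 at 4 h and at 24 h. Each library was made from 2 mixed RIP products, so there was 1 library per group and antibody, 6 in all, and no spread between animals could be measured. The labels name no transgene, and the tissue is whole ventricle, so fewer cells of a type and less RNA per cell cannot be told apart.

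The fetal gene program is a set of genes that the ventricle uses before birth, largely turns down in the adult, and uses again under load. Nppa and Nppb encode the secreted hormones ANP and BNP, which lower blood volume and pressure through guanylyl cyclase receptors. In the rodent heart the adult myosin heavy chain, Myh6, is a fast motor, and Myh7 is the slow fetal motor. Acta1 encodes skeletal alpha-actin, which is found beside cardiac alpha-actin in the fetal and the loaded heart. Ankrd1 is a titin-binding protein of the sarcomere that also reaches the nucleus, and Xirp1 and Xirp2 are actin-binding proteins of the intercalated disc.

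All values are FPKM, a fragment count divided by transcript length and by the size of the library, which allows levels of different genes to be compared per length. The authors deposited 1 table for each library, with an interval around each FPKM, and 1 table of the whole series without intervals. The tables of each library are the source here unless the series table is named, since the series table has no entry for Acta1. Neither kind of table gives read totals, so the depth behind a value is unknown, and the intervals, taken as 95%, stand for counting and assignment error within a library only. A fold is given with an interval derived from those of its libraries. No fold between libraries has a test, because each arm is 1 library. Between 7123 and 8482 genes per library were above 1 FPKM, and mitochondrial genes took between 1.68% and 7.40% of the FPKM. Of the 8 markers of ventricular muscle, Myl2, the ventricular light chain, was highest in every library, between 2114 and 3934 FPKM. Myl3, Tnnt2, Tnni3 and Actc1 were at least 379 FPKM and Mybpc3 at least 54.0 FPKM. Ryr2 was lower, between 8.01 and 14.4 FPKM, and Irx4 was between 0.526 and 1.14 FPKM. Of the 8 skeletal muscle markers, Mylpf, a fast skeletal light chain, stood at 34.7 FPKM in the AngII 24 h IgG library, where all others of the list were at 0. The summed level of the list in the other libraries was at most 1.17 FPKM. Of the 8 atrial markers, Myl7 and Myl4 were present in the Sham libraries and close to 0 in the others, as given below beside Nppa. Ezh2 mRNA itself was between 0.266 and 2.06 FPKM.

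All 8 genes were above the minimum of 1 FPKM in every library, so none depended on a filter. Myh6 was by far the most abundant, with a median of 798 FPKM over the libraries and a rank between 17 and 22 among protein-coding genes. Ankrd1 (median 50.3 FPKM), Myh7 (37.8 FPKM) and Acta1 (36.6 FPKM) followed, and the ranges of these genes overlapped. Nppb (15.4 FPKM), Nppa (10.4 FPKM), Xirp2 (7.81 FPKM) and Xirp1 (6.04 FPKM) were lowest, again with overlapping ranges. The widest ranges over the libraries were those of Acta1 (4.04-fold) and Nppa (3.93-fold), and the narrowest those of Myh7 (1.60-fold) and Ankrd1 (1.69-fold). The intervals were widest for the natriuretic peptides, at up to 51.5% of the midpoint for Nppa and 52.2% for Nppb, and narrowest for Myh6, at 7.51% or less.

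**Figure D1:**
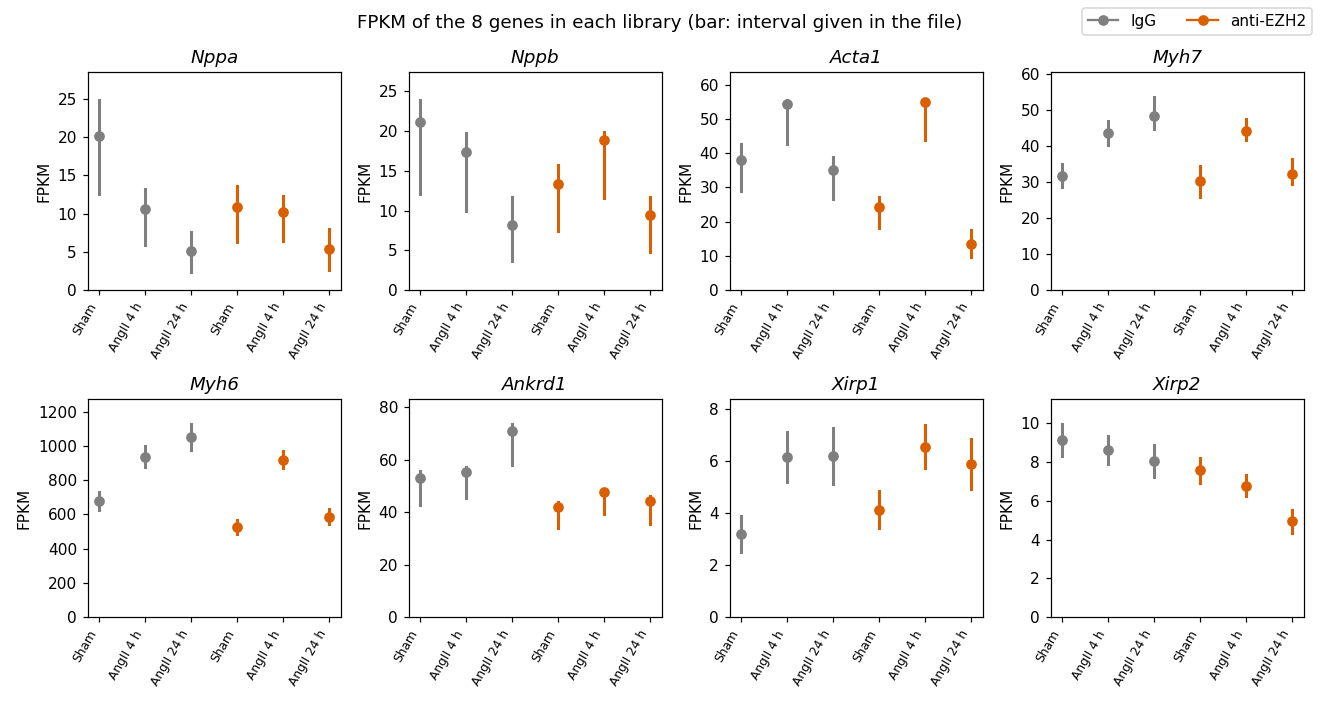
FPKM (vertical axes, from 0, each with its own scale) of the 8 genes in the 6 libraries (horizontal axes), with IgG in grey and anti-EZH2 in orange; points are FPKM and bars the interval given in the file. Nppa was highest in Sham IgG at 20.2 FPKM, Myh6 was highest in AngII 24 h IgG at 1050 FPKM, and Acta1 was lowest in AngII 24 h anti-EZH2 at 13.6 FPKM.

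The natriuretic peptides were lower, not higher, in the IgG libraries after AngII. Nppa stood at 20.2 FPKM in Sham, 10.6 FPKM in AngII 4 h and 5.14 FPKM in AngII 24 h among the IgG libraries. Among the anti-EZH2 libraries it stood at 10.8, 10.2 and 5.36 FPKM in the same order. Both 24 h libraries were thus the lowest, and the anti-EZH2 libraries of Sham and AngII 4 h did not differ beyond their intervals. Nppb stood at 21.2, 17.4 and 8.15 FPKM with IgG in Sham, at 4 h and at 24 h. In the anti-EZH2 libraries Nppb was 13.3, 18.8 and 9.39 FPKM. Here too the 24 h libraries were lowest with either antibody, while the 4 h library was highest with anti-EZH2. In the series table, however, Nppb was nearly flat with anti-EZH2, at 7.36, 7.38 and 7.32 FPKM, beside 9.41, 5.90 and 4.08 FPKM with IgG.

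Relative to Sham in the IgG libraries, Nppa was 0.525-fold at 4 h (0.321 to 0.859) and 0.254-fold at 24 h (0.140 to 0.463). The median fold of 4034 protein-coding genes above 1 FPKM in all libraries was 1.20 at 4 h and 1.21 at 24 h, so that Nppa was 0.437-fold and 0.210-fold relative to that median. Nppb was 0.824-fold at 4 h (0.523 to 1.30) and 0.385-fold at 24 h (0.211 to 0.705). The FPKM intervals of Sham and AngII 24 h did not overlap for either gene, whereas those of Sham and AngII 4 h did. In the anti-EZH2 libraries Nppa was 0.941-fold at 4 h (0.584 to 1.51) and 0.494-fold at 24 h (0.269 to 0.908). Nppb was 1.41-fold at 4 h (0.912 to 2.19) and 0.705-fold at 24 h (0.410 to 1.21) there. Relative to the protein-coding median, Nppb was 0.685-fold and 0.318-fold with IgG at 4 h and 24 h, and 1.04-fold and 0.697-fold with anti-EZH2. The series table gave Nppa at 8.96, 3.47 and 3.35 FPKM in the IgG libraries, and at 5.42, 4.01 and 5.66 FPKM in the anti-EZH2 libraries, in the order of the groups above. The lower IgG value after AngII was therefore present in both kinds of table, while the anti-EZH2 value at 24 h was 1.05-fold of Sham in the series table and 1.14-fold with FPKM divided by their total outside mitochondrial genes. Relative to the protein-coding median, that anti-EZH2 fold was 0.489 in the tables of each library and 0.656 in the series table.

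The atrial light chains, like Nppa with IgG, were higher in Sham than after AngII. Myl7, the atrial regulatory light chain, was 14.3 FPKM with IgG and 12.2 FPKM with anti-EZH2 in Sham, and at most 0.491 FPKM in the AngII libraries. Myl4, the atrial essential light chain, was 9.50 and 6.57 FPKM in the Sham libraries and at most 0.562 FPKM in the others. Sln and Bmp10, 2 of the 8 atrial markers, were at 0 in every library. Other markers of the list differed from this: Kcnj3, an atrial potassium channel subunit, was 1.09, 1.29 and 3.42 FPKM with IgG and 1.29, 3.42 and 1.62 FPKM with anti-EZH2, Tbx5 was highest at 4 h with anti-EZH2 (2.97 FPKM) and Nr2f1 at 24 h with anti-EZH2 (1.25 FPKM). Dkk3 was 1.17 and 0.556 FPKM in the Sham libraries and at most 0.422 FPKM in the others. At 4 h with anti-EZH2 the light chains were near 0 while Nppa was at 0.941-fold of Sham. The summed atrial list was 28.5 and 21.6 FPKM in the Sham libraries with IgG and anti-EZH2, and between 3.41 and 7.67 FPKM in the AngII libraries. Nppa is itself an atrial hormone, and the part of atrial RNA in its difference from Sham was not tested. Between AngII 24 h and AngII 4 h, a comparison without Sham in which both light chains were under 1 FPKM, Nppa was 0.484-fold with IgG (0.258 to 0.906) and 0.526-fold with anti-EZH2 (0.294 to 0.939). Nppb was 0.468-fold (0.256 to 0.855) and 0.499-fold (0.307 to 0.811), and the protein-coding median was 1.00 and 0.743. The FPKM intervals of the 2 times overlapped for both genes. In the series table Nppa was 0.964-fold with IgG and 1.41-fold with anti-EZH2 between the same libraries, and Nppb 0.691-fold and 0.992-fold. The median there was 1.66 and 1.56.

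**Figure D2:**
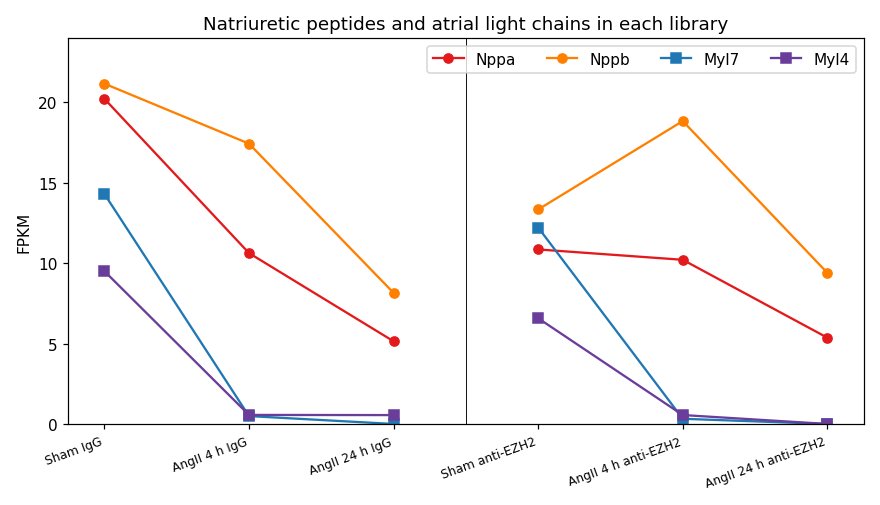
FPKM (vertical axis, from 0) of Nppa, Nppb and the atrial light chains Myl7 and Myl4 in the 6 libraries, IgG on the left and anti-EZH2 on the right; lines join the groups of 1 antibody, with 1 library per point. Myl7 is at 14.3 and 12.2 FPKM in the Sham libraries and at 0 at 24 h, and Nppa is lower at 24 h than at 4 h, where the light chains are already near 0.

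Nppb and Nppa are neighbours on chromosome 4 (chr4:147985788-147987205 and chr4:148000722-148002079, GRCm38, both on the plus strand). The upstream letters of both are shown because the values of the pair were lowest in the same libraries in the tables of each library. They are from RefSeq (GRCm38.p6) and end at the base before the RefSeq start for Nppa. For Nppb, whose GENCODE start lies upstream of the RefSeq start, only a stretch of 27 bases from position -105 to -79 is printed. Capitals mark GATAA, the core letters of GATA factor sites, CATTCC, the MCAT element bound by TEAD factors, and TATAAA, each searched on both strands, so that some of the capitals read as the reverse complement.
Nppa, chr4:148000572-148000721, plus strand: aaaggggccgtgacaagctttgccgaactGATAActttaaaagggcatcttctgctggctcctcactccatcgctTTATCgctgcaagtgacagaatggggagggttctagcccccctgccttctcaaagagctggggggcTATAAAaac
Nppb, chr4:147985795-147985821, plus strand: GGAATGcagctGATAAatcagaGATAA
Both windows of 250 bases before the RefSeq start held 2 GATAA matches, at -121 and -75 in Nppa and at -94 and -83 in Nppb (first base of each match). Of 32851 RefSeq promoters, 22.6% held at least 1 GATAA in 250 bases, 12.6% held the MCAT letters and 12.4% the TATA letters. The TATA letters were present upstream of both genes, and the MCAT letters upstream of Nppb. These are matches of letters and not sites shown to be bound.

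The antisense gene Gm13054 overlaps Nppa on the minus strand (chr4:148001091-148004014) and had nearly the values of Nppa: 15.7, 9.86 and 4.67 FPKM in the IgG libraries and 11.1, 9.94 and 5.08 FPKM in the anti-EZH2 libraries. The library kit keeps the strand, but the strand setting of the counting is not given in the sources used here, so reads of the 2 genes cannot be told apart. Nppa as a multiple of Nppb was 0.956 with IgG and 0.814 with anti-EZH2 in Sham. In the AngII libraries this ratio within a library was between 0.542 and 0.631, lower than in both Sham libraries.

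Acta1 had the widest range over the libraries and was highest at 4 h with either antibody. The gene (chr8:123891769-123894751, minus strand) stood at 38.1, 54.4 and 35.2 FPKM with IgG in Sham, at 4 h and at 24 h. In the anti-EZH2 libraries it was 24.3, 54.8 and 13.6 FPKM. The 24 h anti-EZH2 library was lowest, with an interval that overlapped no other. Acta1 was 1.43-fold of Sham at 4 h with IgG (1.14 to 1.79) and 2.26-fold with anti-EZH2 (1.82 to 2.81). Relative to the protein-coding median, these 4 h folds were 1.19 and 1.67. At 24 h Acta1 was 0.924-fold with IgG (0.709 to 1.20) and 0.560-fold with anti-EZH2 (0.398 to 0.789). Between 24 h and 4 h it was 0.647-fold with IgG (0.516 to 0.811) and 0.248-fold with anti-EZH2 (0.183 to 0.336), against protein-coding medians of 1.00 and 0.743. With FPKM divided by their total outside mitochondrial genes, the 24 h anti-EZH2 value was 1.30-fold of Sham. Relative to the protein-coding median it was 0.554-fold with either scaling. The FPKM of the AngII 4 h anti-EZH2 library lay above the upper bound of its own interval, the only such value among the 48 values of the 8 genes.

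Cardiac alpha-actin, Actc1, was measured beside it, and Acta1 amounted to 5.00%, 5.97% and 5.69% of Actc1 with IgG in Sham, at 4 h and at 24 h. With anti-EZH2 it amounted to 4.03%, 6.39% and 3.58%. Within a library, the proportion was thus highest at 4 h with either antibody, and at 24 h it lay above Sham with IgG and below it with anti-EZH2. Acta1 and Actc1 are paralogs with 86.2% identity over coding sequences of 1134 bases, but no run of 50 bases is common to both transcripts, and the longest identical coding run is 29 bases. That run is shown as the longest stretch from which a read could not be assigned, without the intron that the coordinates span.
Acta1 and Actc1, chr8:123892151-123892255 (exons 6 and 7) and chr2:114047608-114048149 (exons 6 and 7), minus strand: ctggctcccagcaccatgaagatcaagat
The promoter of Acta1, a long-studied target of serum response factor and TEAD factors, is given for the 150 bases before the RefSeq start, with the matches of a CArG box, the MCAT letters and the TATA letters in capitals.
Acta1, chr8:123894776-123894925, minus strand: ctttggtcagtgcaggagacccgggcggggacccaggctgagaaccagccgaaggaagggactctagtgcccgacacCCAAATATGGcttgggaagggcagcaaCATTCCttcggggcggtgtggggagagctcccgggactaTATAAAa
The CArG box began at -73, the MCAT letters at -46 and the TATA letters at -7. A CArG box was present in 1.47% of RefSeq promoters, and in none of the other windows searched here for Nppa, Nppb, Myh6, Myh7, Ankrd1 and Xirp2. No RefSeq promoter of Xirp1 was used here.

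Both cardiac myosin heavy chains were higher after AngII in the IgG libraries, except that Myh7 at 4 h was 0.629-fold of Sham in the series table, and their proportion was nearly constant. Myh7 stood at 31.7, 43.5 and 48.3 FPKM with IgG in Sham, at 4 h and at 24 h, and at 30.1, 44.1 and 32.1 FPKM in the anti-EZH2 libraries. Myh6 stood at 678, 936 and 1050 FPKM with IgG and at 526, 918 and 586 FPKM with anti-EZH2. For both genes the Sham libraries and the 24 h anti-EZH2 library were the lower ones. At 24 h with IgG, Myh7 was 1.52-fold of Sham (1.34 to 1.73) and Myh6 1.55-fold (1.40 to 1.71), or 1.26-fold and 1.28-fold relative to the protein-coding median. At 4 h the folds were 1.37 (1.22 to 1.55) and 1.38 (1.25 to 1.52) with IgG, and 1.47 (1.25 to 1.71) and 1.74 (1.59 to 1.91) with anti-EZH2. Relative to the protein-coding median, these 4 h folds were 1.14 and 1.15 with IgG and 1.08 and 1.29 with anti-EZH2. In the series table Myh6 at 4 h with IgG was 1.05-fold of Sham. At 24 h with anti-EZH2 they were 1.07 (0.895 to 1.27) and 1.11 (1.00 to 1.24), but Myh6 was 2.77-fold in the series table, and Myh7 and Myh6 were 2.47-fold and 2.58-fold with FPKM divided by their total outside mitochondrial genes.

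Myh7 as a share of Myh6 and Myh7, the usual measure of the isoform switch, was 4.47% in Sham IgG (3.79 to 5.25 from the bounds of both genes), 4.44% in AngII 4 h IgG (3.89 to 5.07) and 4.40% in AngII 24 h IgG (3.82 to 5.20). In the anti-EZH2 libraries it was 5.41% in Sham (4.35 to 6.62), 4.59% at 4 h (4.12 to 5.17) and 5.20% at 24 h (4.44 to 6.26). No pair of libraries differed beyond these bounds. The series table gave much lower shares, of 0.403%, 0.241% and 0.556% with IgG and 1.20%, 0.256% and 0.601% with anti-EZH2, because Myh7 in it was between 0.555 and 3.69 FPKM. The FPKM of Myh7 was between 8.93 and 78.4 times as high in the tables of each library as in the series table, while Myh6 differed by 0.984 to 4.07 times. The level of Myh7 and its change with time thus depend on the table: at 24 h with IgG it was 4.17-fold of Sham in the series table, and at 4 h with anti-EZH2 0.247-fold.

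**Figure D3:**
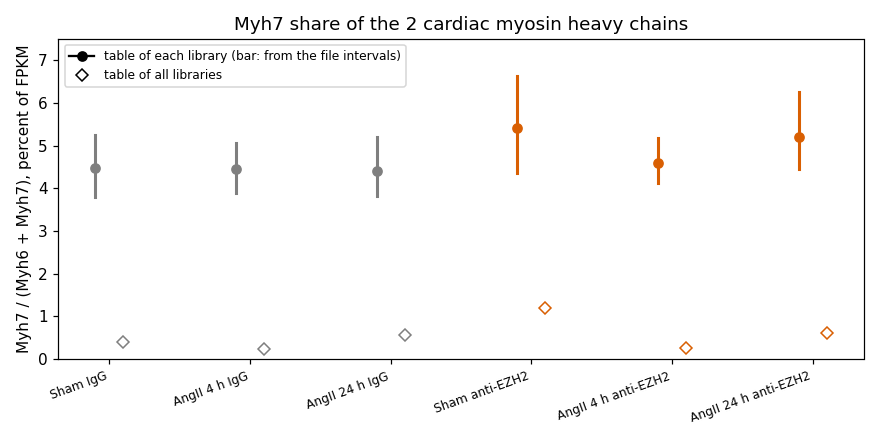
Myh7 as a percent of the summed FPKM of Myh6 and Myh7 (vertical axis, from 0) in the 6 libraries, IgG in grey and anti-EZH2 in orange; filled points are the tables of each library with bars from the file intervals, open diamonds the series table. The filled points lie between 4.40% and 5.41% with overlapping bars, and the diamonds between 0.241% and 1.20%.

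The pair lies head to tail on chromosome 14, with Myh7 at chr14:54970684-54994626 and Myh6 at chr14:54941921-54966927 on the minus strand, and reads can be shared between them. Their coding sequences (5808 and 5817 bases) were 91.4% identical, and 23.8% of all runs of 50 bases in the coding sequence of Myh7 were also in Myh6. The longest identical run, of 245 bases, spans exons 32 and 33 of Myh7 and exons 30 and 31 of Myh6, and is printed because no read within it can be assigned to 1 of the genes. The coordinates span the intron between the exons, which is left out of the letters.
Myh7 and Myh6, chr14:54974947-54975347 and chr14:54948327-54948725, minus strand: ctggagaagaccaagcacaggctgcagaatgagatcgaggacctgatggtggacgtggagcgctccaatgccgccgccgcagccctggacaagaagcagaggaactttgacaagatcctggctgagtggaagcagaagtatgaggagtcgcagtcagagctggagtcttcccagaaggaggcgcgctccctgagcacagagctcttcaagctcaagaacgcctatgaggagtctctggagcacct
Mhrt, an antisense RNA at the end of Myh7 (chr14:54968678-54974349, plus strand), was 24.2, 16.9 and 12.1 FPKM in the IgG libraries and 23.3, 20.9 and 16.2 FPKM in the anti-EZH2 libraries, in the order of the groups above. It was thus lowest at 24 h with either antibody in these tables, where Myh7 was not, but in the series table it was not lower at 24 h than at 4 h, with 11.6, 6.07 and 6.11 FPKM with IgG and 14.2, 9.47 and 12.9 FPKM with anti-EZH2. The intronic miRNAs Mir208a of Myh6 and Mir208b of Myh7 were listed at 0 in all libraries.

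Of the stretch-responsive genes, Xirp1 was higher in all libraries after AngII, Xirp2 had lower values in all of them, and Ankrd1 was within 1.5-fold of Sham in the separate tables. Xirp1 (chr9:120013755-120023598, minus strand) stood at 3.20, 6.18 and 6.18 FPKM with IgG in Sham, at 4 h and at 24 h, and at 4.14, 6.55 and 5.90 FPKM with anti-EZH2. It was 1.93-fold of Sham at both times with IgG (1.49 to 2.51 at 4 h and 1.47 to 2.54 at 24 h). With anti-EZH2 it was 1.58-fold at 4 h (1.28 to 1.96) and 1.43-fold at 24 h (1.13 to 1.80). The intervals of Sham did not overlap those of AngII in any of these comparisons, and Xirp1 lay above the protein-coding median in each, by 1.17-fold to 1.61-fold. Cx3cr1, annotated across Xirp1 on the same strand, was at most 1.25 FPKM in any library. In the series table Xirp1 was also higher than Sham in each comparison, from 1.14-fold at 4 h with anti-EZH2 to 3.63-fold at 24 h with IgG.

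Xirp2 stood at 9.12, 8.61 and 8.05 FPKM with IgG and at 7.56, 6.78 and 4.93 FPKM with anti-EZH2. Only the last library lay apart from its Sham library beyond the intervals, at 0.652-fold (0.566 to 0.752), and with FPKM divided by their total outside mitochondrial genes that fold was 1.51. Relative to the protein-coding median, Xirp2 was between 0.645-fold and 0.786-fold of Sham in the AngII libraries. In the series table Xirp2 was 0.662-fold and 0.633-fold of Sham with IgG at 4 h and 24 h, and 0.660-fold and 0.724-fold with anti-EZH2. There, only the last of these was within 1.5-fold. Relative to the median of that table, they were between 0.409-fold and 0.706-fold. As a multiple of Xirp1 within a library, Xirp2 was 2.85 with IgG and 1.83 with anti-EZH2 in Sham, and between 0.837 and 1.39 in the AngII libraries. The promoter of Xirp2 (chr2:67446002-67526614, plus strand) held an MEF2 site at -74, in capitals below, which is present in 2.92% of RefSeq promoters and was in none of the other member promoters searched.
Xirp2, chr2:67445852-67446001, plus strand: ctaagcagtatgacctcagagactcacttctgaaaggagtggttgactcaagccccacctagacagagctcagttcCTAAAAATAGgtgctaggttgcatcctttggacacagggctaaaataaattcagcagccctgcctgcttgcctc
Ankrd1 (chr19:36111961-36120099, minus strand) stood at 52.9, 55.5 and 70.9 FPKM with IgG and at 42.1, 47.8 and 44.3 FPKM with anti-EZH2. The AngII 24 h IgG library was the highest, at 1.34-fold of Sham (1.13 to 1.60), and relative to the protein-coding median the folds of Ankrd1 against Sham were between 0.839 and 1.11. At 24 h with anti-EZH2 its fold of 1.05 became 1.59 in the series table and 2.43 with FPKM divided by their total outside mitochondrial genes. The protein-coding median of the series table was also 1.59 in that comparison.

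**Figure D4:**
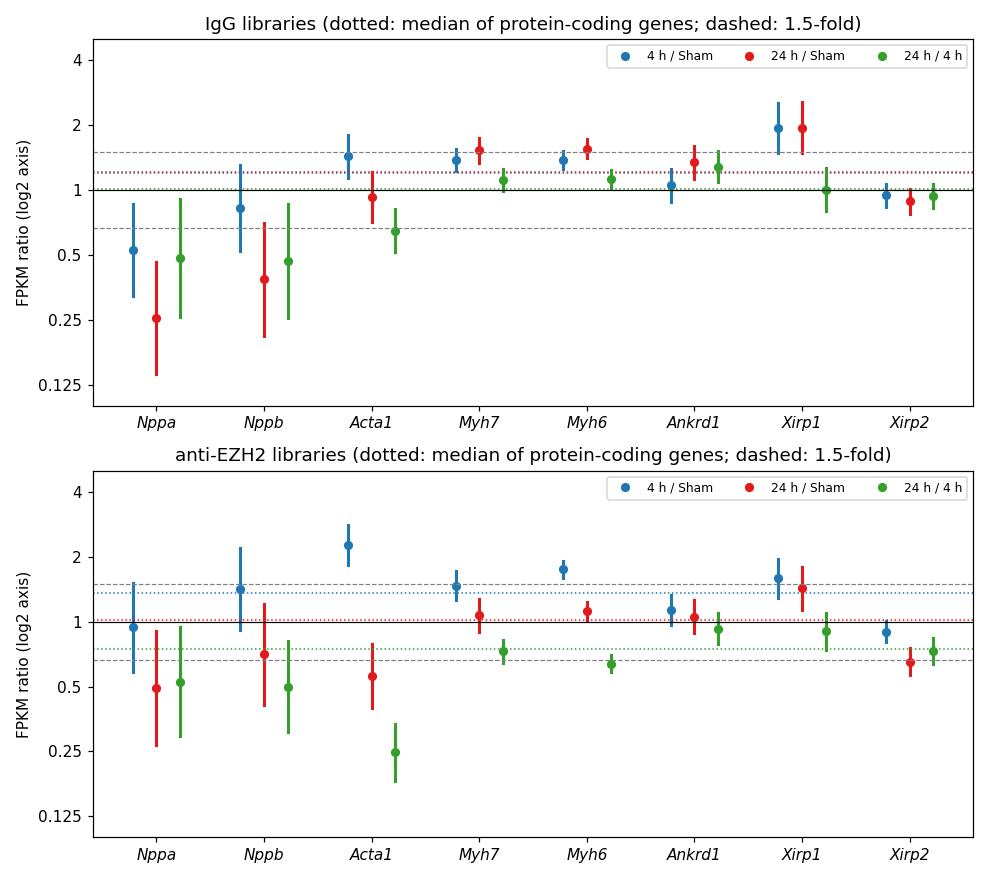
FPKM ratio (vertical axes, log2 scale) of AngII 4 h and 24 h to Sham and of 24 h to 4 h for the 8 genes, IgG libraries above and anti-EZH2 libraries below; bars are intervals derived from the file intervals, dotted lines the median of protein-coding genes in the same colours and dashed lines 1.5-fold. Nppa at 24 h with IgG is the lowest IgG ratio to Sham at 0.254, and Acta1 with anti-EZH2 is at 2.26 at 4 h and 0.560 at 24 h.

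The folds between libraries were counted at 1.5-fold, the limit that the study set for altered EZH2 association and that is applied here to FPKM within an antibody, beside the share of all genes past it. At 4 h with IgG, Xirp1 was higher, 1 of 8, where 34.7% of all genes above 1 FPKM in 1 of the libraries were, and Nppa lower, 1 of 8 against 22.8%. In the series table Xirp1 was 1.38-fold there, and Nppa (0.387), Nppb (0.627) and Xirp2 (0.662) were past 1.5-fold lower. Myh7 was 0.629-fold but under 1 FPKM in both libraries, and the protein-coding median was 0.938. At 24 h with IgG, 3 of 8 were higher (Xirp1, Myh6 and Myh7) against 37.9%, and 2 of 8 lower (Nppa and Nppb) against 22.3%. At 4 h with anti-EZH2, 3 of 8 were higher (Acta1, Myh6 and Xirp1) against 41.3%, and none lower against 20.6%. In the series table Myh6 (1.17) and Xirp1 (1.14) did not pass 1.5-fold there, and Myh7 (0.247) and Xirp2 (0.660) were past it lower. The protein-coding median of that table was 1.06. At 24 h with anti-EZH2, none was higher against 25.9%, and 3 of 8 were lower (Nppa, Acta1 and Xirp2) against 35.7%. The directions in this comparison swapped with the table and the scaling. In the series table, which gave no fold for Acta1, Xirp1 (3.60), Myh6 (2.77) and Ankrd1 (1.59) were past 1.5-fold higher and none was past it lower. The protein-coding median fold in that table was itself 1.59. Relative to it, Xirp1 was 2.26-fold, Myh6 1.74-fold, Ankrd1 0.998-fold, Nppa 0.656-fold and Xirp2 0.455-fold. With FPKM divided by their total outside mitochondrial genes, 6 were higher, from Xirp1 (3.30), Myh6 (2.58), Myh7 (2.47) and Ankrd1 (2.43) to Nppb (1.63) and Xirp2 (1.51), and none lower. That scaling moves every gene of a library by the same factor. Relative to the protein-coding median, Nppb thus stayed at 0.697-fold and Xirp2 at 0.645-fold. The share of all genes past 1.5-fold was not counted for these 2 alternatives. Between 24 h and 4 h, 3 of 8 were lower with IgG (Nppb, Nppa and Acta1) against 24.0%, and 4 of 8 with anti-EZH2 (Acta1, Nppb, Nppa and Myh6) against 48.2%. In the series table, however, Myh6 with anti-EZH2 was 2.36-fold and Nppa 1.41-fold between these times, where the protein-coding median was 1.56. In the tables of each library none was higher with either antibody, against 28.1% and 16.6%. With 8 genes, these counts were read only as descriptions beside the shares.

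In the tables of each library, none of the 8 mRNAs had an anti-EZH2/IgG ratio above 2, the study's criterion for association, while in the series table Myh7 had a ratio of 2.96 in Sham (2.62 against 0.883 FPKM). In Sham, the ratio ran from 0.537 for Nppa (0.331 to 0.870) to 1.29 for Xirp1 (0.986 to 1.70), with 0.630 for Nppb, 0.637 for Acta1, 0.775 for Myh6, 0.795 for Ankrd1, 0.830 for Xirp2 and 0.949 for Myh7. At 4 h every ratio lay between 0.788 for Xirp2 and 1.08 for Nppb. At 24 h it ran from 0.386 for Acta1 (0.275 to 0.542) to 1.15 for Nppb (0.598 to 2.22), with 0.558 for Myh6, 0.613 for Xirp2, 0.624 for Ankrd1, 0.666 for Myh7, 0.954 for Xirp1 and 1.04 for Nppa. The median ratio of protein-coding genes was 0.797 in Sham, 0.907 at 4 h and 0.673 at 24 h, so most of the lower ratios at 24 h stood near the median of all genes. None of 8 was above 2-fold in Sham, where 18.0% of all genes were, nor at 4 h (15.6%) or 24 h (11.8%). Acta1 at 24 h was the only ratio under 0.5, 1 of 8 against 37.8% of all genes, and none was in Sham (23.2%) or at 4 h (15.3%). Relative to the median, Acta1 at 24 h was 0.573-fold. These counts depend on the scaling: with FPKM divided by their total outside mitochondrial genes, Nppb (2.86), Nppa (2.59) and Xirp1 (2.36) were above 2 at 24 h and Acta1 was at 0.956. That scaling moves the ratio of every gene by the same factor, and the share of all genes above 2 under it was not counted. Relative to the protein-coding median, which moves alike, Nppb was 1.71-fold, Nppa 1.55-fold and Xirp1 1.42-fold with either scaling.

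**Figure D5:**
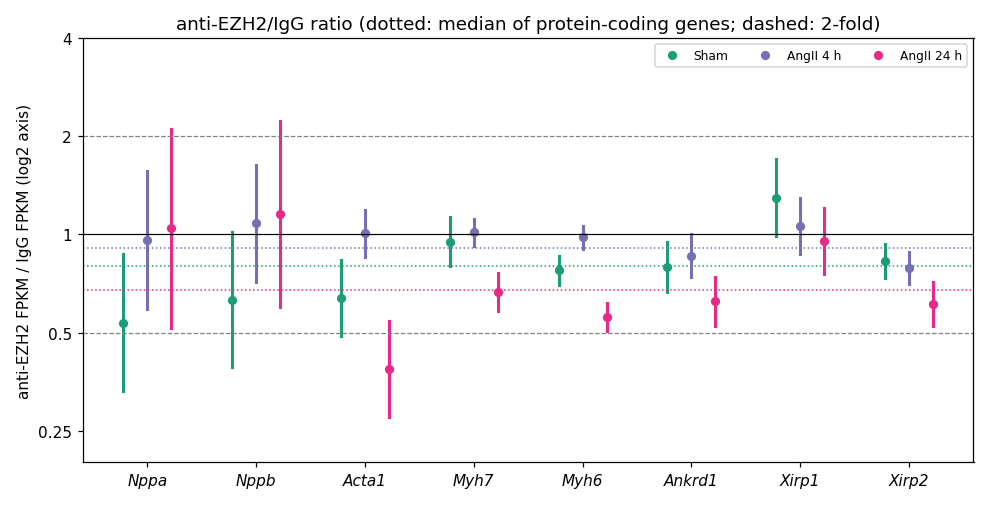
Ratio of anti-EZH2 FPKM to IgG FPKM (vertical axis, log2 scale) for the 8 genes in Sham, AngII 4 h and AngII 24 h; bars are intervals derived from the file intervals, dotted lines the median of protein-coding genes in the same colours and dashed lines 2-fold. No point lies above 2, and Acta1 at 24 h, at 0.386, is the only point under 0.5.

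The ratio itself was then compared between groups at 1.5-fold. The study counted EZH2-associated ncRNAs that passed this limit in all 3 comparisons, whereas here each comparison was called on its own. Comparisons that share the Sham libraries are not independent of each other. For Nppa the ratio was 1.79-fold of Sham at 4 h (0.903 to 3.55) and 1.94-fold at 24 h (0.828 to 4.56). For Nppb it was 1.71-fold (0.912 to 3.22) and 1.83-fold (0.813 to 4.11). Both genes passed 1.5-fold at both times against Sham, with intervals that included 1. The Sham IgG library held the highest FPKM of both genes, but for Nppb at 4 h the fold of Sham was 1.41 with anti-EZH2 and 0.824 with IgG. Between 24 h and 4 h the ratio did not pass 1.5-fold for either gene, at 1.09-fold for Nppa and 1.07-fold for Nppb. For Acta1 the ratio was 1.58-fold of Sham at 4 h (1.16 to 2.17) and 0.607-fold at 24 h (0.394 to 0.935). The remaining 5 genes stayed within 1.5-fold against Sham, from 0.701 for Myh7 at 24 h to 1.26 for Myh6 at 4 h, but in the series table Myh7 was at 0.393 at 4 h and 0.329 at 24 h. Of 8, 3 were thus higher at 4 h against 34.3% of all genes and none lower against 26.4%, and at 24 h 2 were higher against 22.6% and 1 lower against 43.1%. The protein-coding median was 1.13 at 4 h and 0.821 at 24 h. Relative to it, Acta1 was 1.41-fold and 0.739-fold, within 1.5-fold at both times. Nppa was 1.59-fold and 2.37-fold and Nppb 1.52-fold and 2.23-fold. Between 24 h and 4 h, the ratio was lower for Acta1 (0.383, 0.262 to 0.559), Myh6 (0.569, upper bound 0.648) and Myh7 (0.656, 0.555 to 0.776), 3 of 8 against 47.9% of all genes, and none was higher against 19.1%. The median of protein-coding genes in that comparison was 0.742.

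A test was possible only for an antibody effect common to the 3 groups. In limma on log2(FPKM + 1) with the group as a block, 1 of 8206 genes was higher with anti-EZH2 at an adjusted p below 0.05 (0.0122%) and none was lower (0.0%), while 649 had an unadjusted p below 0.05. None of the 8 genes was called. The largest difference was that of Acta1, with -0.64 on the log2(FPKM + 1) scale (anti-EZH2 minus IgG, SE 0.349, limma adjusted p = 0.642), lower with anti-EZH2 in 2 of 3 groups. Xirp1 was the only member with a higher mean with anti-EZH2 (0.10, SE 0.256, limma adjusted p = 0.880). For the other 6 the difference was between -0.41 for Myh6 and -0.11 for Nppb, where the median over all genes tested was -0.25. A p that misses the threshold does not show that the antibodies recovered these RNAs alike.

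Around the 8 genes, 84 further genes of the program were followed in 6 lists. The receptors and processing enzymes of the natriuretic peptides were low. Corin, the protease that cleaves the ANP precursor, stood between 4.18 and 7.85 FPKM, and Npr1, the receptor of both hormones, between 0.836 and 2.05 FPKM. Of 6 such genes above the minimum, 3 were lower at 4 h with IgG (Mme, Npr2 and Npr1) and 1 higher (Pcsk6, a proprotein convertase), where 22.8% of all genes were lower and 34.7% higher. Npr1 was 0.483-fold of Sham there. The third natriuretic peptide, Nppc, was listed at 0 in all libraries.

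The adult contractile and calcium genes include partners of Myh6 in the sarcomere. All 13 were above the minimum, and 7 were higher at 4 h with anti-EZH2, none lower, beside 41.3% and 20.6% of all genes, with a median fold of 1.61 against 1.31 over all genes tested. Among them Mybpc3, the cardiac myosin-binding protein C, went from 54.0 FPKM in Sham to 96.3 FPKM. With IgG, 3 were higher at 4 h (Pln, Tnni3 and Tnnt2) and none lower, beside 34.7% and 22.8% of all genes. The median fold there was 1.31 against 1.17 over all genes tested. With IgG at 24 h, 2 were higher (Pln and Tnni3) and 1 lower, beside 37.9% and 22.3% of all genes. The lower gene was Casq2, the calcium-binding protein of the sarcoplasmic reticulum, at 41.0 against 87.4 FPKM. None passed 2-fold between the antibodies in any group. Of all genes, 18.0%, 15.6% and 11.8% were past 2-fold higher with anti-EZH2 in Sham, at 4 h and at 24 h. Past 2-fold lower were 23.2%, 15.3% and 37.8% in the same order.

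Of 10 other fetal or non-cardiac contractile isoforms, Myl7 and Myl4, the atrial light chains described above, were lower than Sham at both times with either antibody. With IgG at 24 h, 4 of the 8 above the minimum were lower (Myl7, Myl4, Tpm2 and Myl9) and 1 was higher (Tnnt1), beside 22.3% and 37.9% of all genes. Tnni1, the fetal troponin I, was at most 0.134 FPKM in any library. Tnnt1, the slow skeletal troponin T, was 3.80, 8.49 and 7.87 FPKM with IgG in Sham, at 4 h and at 24 h. Of 14 further stretch-responsive and Z-disc genes above the minimum, 3 were higher at 4 h with IgG (Lmcd1, Fhl2 and Nebl) and none lower, beside 34.7% and 22.8% of all genes. At 4 h with anti-EZH2, 7 were higher and none lower, beside 41.3% and 20.6%. At 24 h with IgG, 1 was higher (Lmcd1) and 3 lower (Fhl1, Ankrd23 and Flnc), beside 37.9% and 22.3%. At 24 h with anti-EZH2, 2 were higher and 2 lower, beside 25.9% and 35.7%. Between 24 h and 4 h with anti-EZH2, none was higher and 9 were lower, beside 16.6% and 48.2%. Lmcd1, a LIM protein linked to calcineurin signalling, was 1.51, 3.24 and 3.77 FPKM with IgG and 1.49, 4.43 and 2.74 FPKM with anti-EZH2, and was higher than Sham in all libraries after AngII.

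Transcriptional regulators were mostly low. Tead1, the TEAD factor of the adult heart, was 5.28, 8.41 and 8.20 FPKM with IgG and 6.53, 10.8 and 10.5 FPKM with anti-EZH2, and passed 1.5-fold over Sham in each comparison. Gata4 was 3.46, 6.98 and 6.18 FPKM with IgG. Of 20 regulators above the minimum, 5 were higher and 6 lower at 4 h with IgG, and of 18, 10 were higher and 1 lower at 4 h with anti-EZH2. The shares of all genes higher and lower were 34.7% and 22.8% with IgG and 41.3% and 20.6% with anti-EZH2. Of the 15 secreted and stress genes only 4 to 7 were above the minimum in a comparison. Uchl1, a deubiquitinase, was 2.08, 6.59 and 5.59 FPKM with IgG and 2.12, 5.32 and 5.43 FPKM with anti-EZH2, higher than Sham in all libraries after AngII. Fos, Myc, Edn1 and Il6 were under 1 FPKM in every library. Over the 6 lists, 16 genes were higher and 14 lower of 69 above the minimum at 4 h with IgG (all genes 34.7% and 22.8%), and 11 and 18 of 67 at 24 h (37.9% and 22.3%). With anti-EZH2 they were 28 and 4 of 62 at 4 h (41.3% and 20.6%), and 15 and 12 of 61 at 24 h (25.9% and 35.7%).

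The genes most like each member were sought among 4812 genes above 1 FPKM in all libraries, by the root mean square difference of log2(FPKM + 1) after centring. For Nppa they were its antisense neighbour Gm13054 (0.12), S100a16 (0.13) and C1qb (0.17). S100a16 was 7.97, 2.80 and 1.51 FPKM with IgG, and C1qb, a complement subunit of macrophages, was 9.65, 4.73 and 2.96 FPKM. For Nppb they were Wdr1, Syngr1 and Rpl31-ps9, for Acta1 Gm26378, Mrpl33 and 2310022A10Rik, and for Myh7 Gm3534, Tmem65 and Mcur1. For Myh6 they were Bri3, Mybpc3 and Cox7a2l (0.04 to 0.06), for Xirp1 Polr2l, Cdc37l1 and Bcap29, and for Xirp2 Plbd1, Lman1 and Rpl37a. Among the members themselves, Myh7 and Myh6 were nearest to each other (0.13), as were Nppa and Nppb (0.26), while the nearest member to Acta1, Myh6, was 0.48 away. The likeness rests on 6 libraries that share their preparation, and it carries no test.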

How the data were processed

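RIP-seq libraries of mouse left ventricle (6, 1 per group and antibody) were stranded, and the authors mapped the reads to mm10 with TopHat2 (also named in the submitters' processing notes). The authors deposited FPKM values, per the file headers with lower and upper bounds in the table of each library. The FPKM program, its annotation and the strand setting are not given in the sources used here. Rows with a status other than OK were dropped, values below 0.001 FPKM were set to 0, and genes were matched to GENCODE M21 (GRCm38) by identifier and, through gene symbols, to the series table. Groups were taken from the labels.

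Ratios used no pseudocount and a minimum of 1 FPKM in 1 of the libraries compared. A ratio was called at 2-fold between antibodies and at 1.5-fold between groups. Intervals of ratios combined the half-widths of the file bounds on the log scale. limma 3.58.1 (R 4.3.3, trend, group as block, Benjamini-Hochberg) used log2(FPKM + 1) of 8206 genes above 1 FPKM in at least 3 libraries. In simulated data for that comparison (8206 genes), it called 43.0% of 100 genes changed by 1.5 on the log2 scale, 99.0% of 100 changed by -3 and 0 of 8006 unchanged. The simulated noise of a gene was capped at the median over genes, so genes noisier than that were made quieter than in the data. Changes were placed only in genes of higher mean, a range that leaves out Nppa, Nppb, Xirp1 and Xirp2. The shares called may therefore be too favourable for these libraries. Promoters were read from RefSeq tables (GRCm38.p6), transcripts from GENCODE M21. Calculations ran under Python 3.11.15 with matplotlib 3.10.9, scipy 1.17.1, pandas 2.3.3 and numpy 2.4.6.

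The members, lists and rules were chosen with earlier results of these data known. Named genes were the members, at most 3 genes per list and direction with the largest change, the 3 genes most like each member (for Ankrd1 not reported here), overlapping genes and Ezh2. Tead1, Gata4, Tnni1, Corin, Nppc, Fos, Myc, Edn1, Il6 and the atrial and skeletal markers were named after their values were seen. Of the RefSeq promoters, 7 of the 8 members had an entry. Alternatives were the series table, median scaling, exclusion of mitochondrial genes from the total, pseudocounts, other folds, a minimum in both libraries and separated intervals. Scaling by 13 adult cardiac genes and the comparison of 24 h with 4 h were added after seeing the data.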

Additional observations from a re-analysis of the deposited data

Results flagged for a closer look

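Gm17428, a short gene within the Myh7 locus (chr14:54976933-54977025, plus strand), was listed at 0 FPKM in the 3 IgG libraries and at 475 FPKM in Sham anti-EZH2, 276 FPKM in AngII 4 h anti-EZH2 and 577 FPKM in AngII 24 h anti-EZH2. It belongs to none of the comparisons above and exceeded the control libraries in every group. The intervals in the file for these values, 3.77 to 30.2, 1.35 to 18.9 and 4.50 to 36.0 FPKM, do not contain the FPKM, and no fold is given against libraries at 0. In the series table the values were 69.4, 65.9 and 1065 FPKM.

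Acta1 moved in opposite directions against Sham at the 2 times in the anti-EZH2 libraries, at 2.26-fold at 4 h and 0.560-fold at 24 h, with intervals on either side of 1. With FPKM divided by their total outside mitochondrial genes both folds were above 1, at 2.40 and 1.30. The difference between the times was not tested, since each is 1 library.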

How the results depend on the processing

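The groups have 1 library each, so no replicate could be left out, and the depth behind a value is unknown. The labels number no replicates, and limma, which paired the libraries by group, called 1 gene with this block and 3 without the replicate block. In limma 0 genes were called with the series table, median scaling, scaling by adult cardiac genes or no filter (unadjusted p below 0.05 for 259, 527, 523 and 955), and 6 without mitochondrial genes. Without mitochondrial genes means here that FPKM were divided by the total of all other genes of a library. This moves every gene of a library by the same factor, so the setting is a rescaling by that total. Mitochondrial genes took 5.33% of the FPKM in Sham anti-EZH2 and 7.40% in AngII 24 h anti-EZH2. The cause of these moves was not tested. No member was called in any of these fits.

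Counts of members past 2-fold between the antibodies moved in Sham from 0 to 1 with the series table and 3 at 1.5-fold. At 24 h the count of 1 became 0 with the series table, median scaling or adult gene scaling, 3 without mitochondrial genes and 5 at 1.5-fold. Counts past 1.5-fold against Sham moved at 4 h with IgG from 2 to 5 without mitochondrial genes, 0 at 2-fold and 1 with intervals apart. At 24 h with IgG 5 became 3 with median scaling, adult gene scaling or against 4 h, and 2 at 2-fold. With anti-EZH2, 3 became 1 at 2-fold at both times and 6 at 24 h without mitochondrial genes, these higher instead of lower. With the series table, the 4 h counts were 3 with IgG and 2 with anti-EZH2, but in part of other genes, all of them lower. Counts of altered ratios (3 in each comparison) became, against Sham, 0 at 2-fold and 2 with median scaling at both times, and 7 at 24 h without mitochondrial genes. Between 24 h and 4 h they became 0 with the series table, 1 with median scaling or at 2-fold and 6 without mitochondrial genes.

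Myh7 shares in the series table were 0.403%, 0.241%, 0.556%, 1.20%, 0.256% and 0.601%. Counts over the pathway lists became, with the series table, 4 from 16 for the Sham antibody ratio, 18 from 30 at 4 h with IgG, 20 from 32 at 4 h with anti-EZH2 and 50 from 27 at 24 h with anti-EZH2.

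Directions of called folds against Sham turned at 24 h with anti-EZH2: Nppa to 1.05 with the series table and 1.14 without mitochondrial genes, and, without mitochondrial genes, Acta1 to 1.30 and Xirp2 to 1.51. Between 24 h and 4 h with anti-EZH2, the series table turned Nppa to 1.41 and Myh6 to 2.36. The protein-coding median of the series table was 1.59 at 24 h against Sham and 1.56 between 24 h and 4 h with anti-EZH2. The limma difference, not called in any fit, turned above 0 with the series table, median scaling, no mitochondrial genes and adult gene scaling for Nppa (0.049, 0.027, 0.19 and 0.021), Nppb (0.23, 0.21, 0.38 and 0.20) and Myh7 (0.33, 0.13, 0.31 and 0.13), and without mitochondrial genes for Myh6 (0.12), Ankrd1 (0.12) and Xirp2 (0.084).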
